A study of Rattus norvegicus with 9 samples.

Results

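The nuclear transfer RNA (tRNA) genes for glutamine, aspartate and asparagine were followed through 9 small RNA libraries of rat (Rattus norvegicus) striatum. They were chosen by name: every counted entry of a nuclear chromosome whose listed amino acid is Gln, Asp or Asn. This gave 47 of the 408 nuclear tRNA genes in a table of 1759 entries, the others being the 2 mitochondrial tRNAs, 764 microRNAs and 585 piRNA entries. By anticodon they are 10 Gln-CTG, 5 Gln-TTG, 15 Asp-GTC, 2 Asp-ATC and 15 Asn-GTT genes, and all 47 passed the filter on low counts.

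The striatum, the input nucleus of the basal ganglia, is a known site of manganese injury. Rats of 8 weeks, 18 in all and of both sexes, were dosed by mouth into the stomach on 6 days of each week over 8 weeks. The MMT group (methylcyclopentadienyl manganese tricarbonyl, a fuel additive) received 4 mg/kg in corn oil, about 1 mg of manganese per kg. The MnCl2 group received 200 mg/kg of the manganese chloride tetrahydrate in saline at 10 ml/kg, and the control group corn oil at 1 ml/kg. Each group has 3 libraries. The labels give neither strain, nor the sex behind a library, nor whether a library is 1 rat or a pool, so every p-value below rests on the spread among libraries, which may be partly technical. MnCl2 came in saline and the control in corn oil, so the compound and its vehicle cannot be told apart in that comparison. Both treated groups are compared with the same 3 control libraries.

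A tRNA carries its amino acid at its 3′ end and reads a codon with its anticodon. Its gene holds its own promoter, the A and B boxes inside the transcribed sequence, which RNA polymerase III factors bind. Mature tRNAs are cut into fragments by nucleases such as angiogenin, and such fragments are abundant among the small RNAs of brain. Asp and Asn tRNAs carry queuosine at the first anticodon base, Asp tRNA is also methylated by DNMT2 in the anticodon loop, and the wobble uridine of Gln-TTG is modified through the Elongator complex. A gel band of 15 to 45 nucleotides was sequenced here, shorter than every listed member (73 to 78 bases), so the counts are of fragments.

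The sequences on which the results turn are the most abundant of each anticodon and those that differ from it in level or in fold change. They are given as listed in the deposited tables, 5′ to 3′, with the anticodon in capitals.
Gln-CTG sequence 1: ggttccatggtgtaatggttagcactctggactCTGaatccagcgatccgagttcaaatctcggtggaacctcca
Gln-CTG sequence 3: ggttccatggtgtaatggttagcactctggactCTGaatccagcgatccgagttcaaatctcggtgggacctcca
Gln-CTG sequence 6: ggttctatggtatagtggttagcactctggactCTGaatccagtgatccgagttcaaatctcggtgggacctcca
Gln-TTG sequence 1: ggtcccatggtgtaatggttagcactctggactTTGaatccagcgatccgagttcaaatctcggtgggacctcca
Asp-GTC sequence 1: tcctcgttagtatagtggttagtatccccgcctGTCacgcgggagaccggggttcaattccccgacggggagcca
Asp-GTC sequence 2: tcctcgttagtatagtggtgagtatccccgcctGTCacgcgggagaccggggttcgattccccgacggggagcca
Asp-GTC sequence 3: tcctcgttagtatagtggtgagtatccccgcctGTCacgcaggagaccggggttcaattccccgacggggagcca
Asp-ATC sequence 1: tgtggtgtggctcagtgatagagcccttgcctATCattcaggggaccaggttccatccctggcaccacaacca
Asn-GTT sequence 1: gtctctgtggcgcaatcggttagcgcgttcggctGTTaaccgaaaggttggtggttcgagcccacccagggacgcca
Asn-GTT sequence 2: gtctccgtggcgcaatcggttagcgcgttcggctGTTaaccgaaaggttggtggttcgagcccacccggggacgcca
Asn-GTT sequence 7: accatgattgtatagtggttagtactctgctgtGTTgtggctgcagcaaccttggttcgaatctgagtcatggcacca
Positions below count from 1 at the 5′ end of the listed entry, and a change is written with the base of the anticodon's most frequent sequence first.

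The 47 genes held 21 distinct sequences, each ending in the CCA that is added to a tRNA after transcription. Of the 47, 36 had at least 1 identical copy among the members, and 0 were identical to a tRNA gene outside them. Gln-CTG had 6 sequences, Gln-TTG 4, Asp-GTC 3, Asp-ATC 1 and Asn-GTT 7. The most frequent Gln-CTG and Gln-TTG sequences were 94.7% identical, whereas any other pair of anticodons shared between 54.2% and 60.8% of bases. The B box, searched as GTTCNANNC on both strands, was found on the sense strand of 47 of the 47 members and on the antisense strand of 0. Over all 408 nuclear tRNA genes 81.9% held it on the sense strand.

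The listed names were checked against the sequences. Asp-ATC, with an anticodon not typical of aspartate tRNAs, shared 60.8% of bases with Asp-GTC and 76.0% with its nearest other isotype, Ala-AGC. The pair of Asn-GTT genes on chromosome 11 (sequence 7) shared 53.4% with the most frequent Asn-GTT sequence and 87.2% with a His-GTG gene. For these 4 genes the sequence therefore lay nearer to another amino acid's tRNA than to the named one. They are described by their listed names.

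Some of the members lie in clusters, with coordinates as the entry names give them (rn6, not checked against a genome here). Others are the only gene of their anticodon on a chromosome, as for Gln-CTG on chromosomes 8 and 10. Of the 15 Asp-GTC genes, 8 lie at chr13:93938000-95751497. On chromosome 2, 5 Asn-GTT genes lie at chr2:217968880-218122034 and 4 Gln-CTG genes at chr2:217990999-219335185. A further 4 Gln-CTG genes lie at chr17:57836792-58893713. Identical copies could not be told apart by their counts: within a library their variance over their mean was 1.05 (234 degrees of freedom; 1 is pure counting noise). The totals of identical copies differed by at most 1.07-fold. How the authors placed reads that fit several copies is not given in the sources used here, and the anticodon sums are therefore given first.

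Library totals ran from 583045 (control 3) to 2012769 (control 1) counts. The neuronal microRNA miR-9a-5p stood between 21879 and 32181 CPM (counts scaled to a common library size) and miR-124-3p between 1947 and 2658, so the neuronal markers of the labelled tissue were present in every library. The choroid plexus marker miR-204-5p overlapped between groups but ran from 201 to 1922 CPM over the libraries. Markers of other cell types were low or overlapped between groups, with these exceptions. The muscle microRNAs miR-1-3p and miR-133a-3p summed to 14.7 to 18.4 CPM in control, 19.9 to 23.9 in MMT and 23.1 to 99.8 in MnCl2. For 1 of these 2 markers all MMT libraries, and for 1 all MnCl2 libraries, lay above every control. The blood markers miR-451-5p and miR-144-3p summed to 44.5 to 74.5, 44.3 to 63.9 and 48.9 to 127 CPM, and 1 of 2 lay wholly above control in MnCl2. The oligodendrocyte markers summed to 2994 to 4666, 4108 to 4839 and 3537 to 5231 CPM, and 1 of 2 lay wholly above control in MMT. Among the 3 neuronal markers, 1 lay wholly above control in MnCl2. The epithelial miR-200a-3p was at 0 in MMT library 1. How many of all entries separate in this way was not counted, so these exceptions do not show that the groups differ in cell makeup. The part of these markers in the results below was not tested. In bulk tissue, fewer cells of a type and less RNA per cell cannot be told apart.

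The members together held 3.89%, 5.67% and 5.58% of all counts in control libraries 1, 2 and 3. They held 4.50%, 5.38% and 4.04% in the MMT libraries and 4.98%, 5.58% and 4.09% in the MnCl2 libraries. The groups overlapped, with means of 5.05% ± 1.00 (SD, n = 3), 4.64% ± 0.682 and 4.88% ± 0.746. Exact two-sided permutation tests, which cannot go below 0.1 with 3 against 3, gave p = 0.6 for MMT against control, 0.8 for MnCl2 against control and 0.7 for MMT against MnCl2 (0.8 each after Benjamini-Hochberg adjustment over the 3). The MMT difference from control, −0.408 percentage points, was −0.987 without control 1, −0.778 without MMT 2, −0.141 without control 3, −0.106 without MMT 3 and −0.095 without control 2.

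Asp-GTC and Gln-CTG made up most of that share. Over the 9 libraries Asp-GTC averaged 22343 CPM, the third highest of 50 nuclear isotypes, and Gln-CTG 21004, the fourth, in sums over all copies of an anticodon. Their ranges over the libraries overlapped, so their order is not set. Gln-TTG averaged 2609 CPM, Asn-GTT 2302 and Asp-ATC 74.1, the last at rank 49 of 50. The listed lengths are nearly equal, but the counts are of fragments. The ranks are therefore of counted fragments and not of tRNA amounts. The 5 anticodons also differed in how much they varied: the coefficient of variation over the 9 libraries was 51.0% for Asp-ATC and 24.1% for Asp-GTC, ranks 1 and 5 of 50, but 8.60% for Asn-GTT, rank 44.

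**Figure D1:**
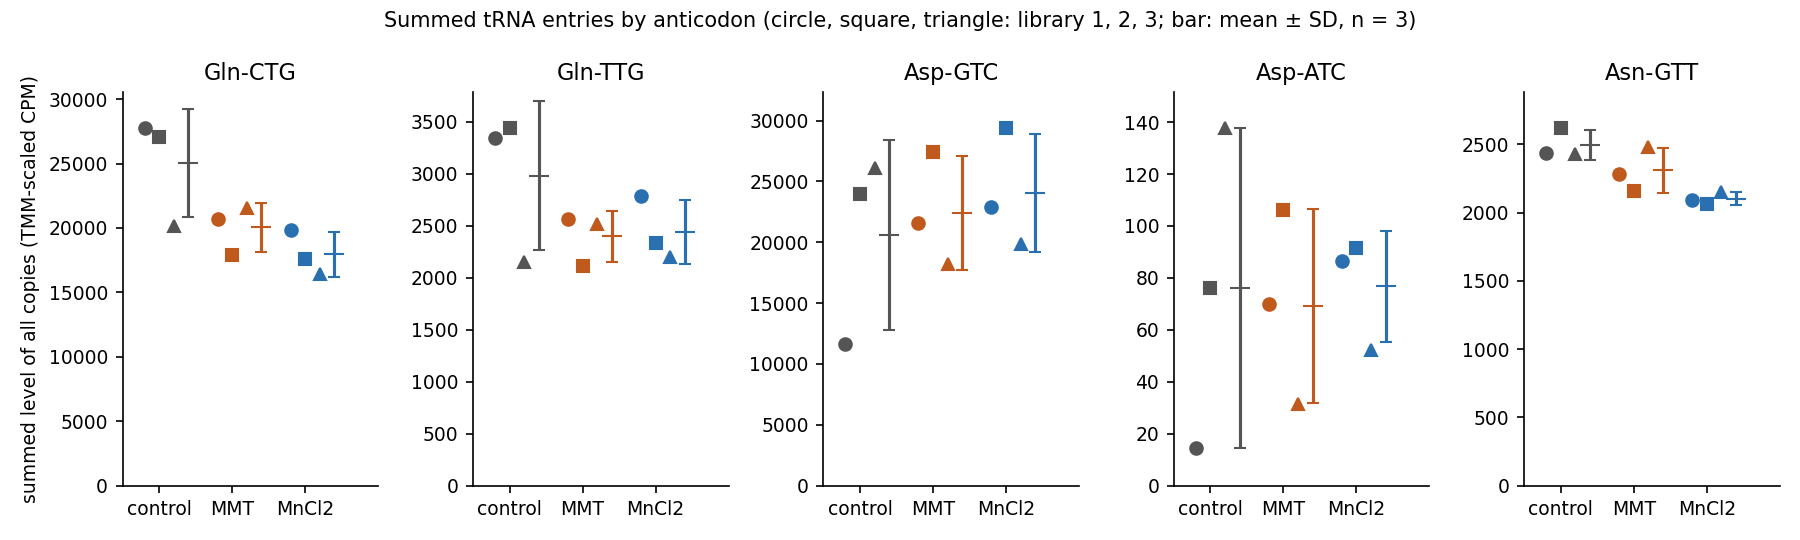
Summed level of all gene copies of each anticodon (vertical axes, CPM after TMM scaling, each from 0) in the control, MMT and MnCl2 libraries; circles, squares and triangles are libraries 1, 2 and 3 and the bars are the mean ± SD of 3 libraries. The 3 MnCl2 libraries lie below the 3 control libraries for Gln-CTG (highest 19844 against lowest 20180) and Asn-GTT (2152 against 2426), and control library 1 is the lowest point of the Asp-GTC (11632) and Asp-ATC (14.4) panels. As unscaled shares of all counts, not drawn here, the Asn-GTT groups overlap. The share of all rows in which the 2 groups separate was not counted.

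For Gln-CTG, which reads CAG codons, the summed level was 27777, 27094 and 20180 CPM in control libraries 1, 2 and 3. It was 20673, 17915 and 21530 CPM in the MMT libraries and 19844, 17571 and 16452 in the MnCl2 libraries. Control libraries 1 and 2 stood above all others, and control 3 fell among the MMT values. On this scale the 3 MnCl2 libraries lay below the 3 controls by a small margin (19844 against 20180). As unscaled shares of all counts the nearest libraries were MnCl2 1 at 2.07% and control 3 at 2.21%. In the separately scaled fit of single genes the most abundant copy overlapped, at 3434 CPM in MnCl2 1 against 3211 in control 3. How many of all rows separate so was not counted. The means were 25017 ± 4203 (SD, n = 3), 20039 ± 1889 and 17956 ± 1729 CPM. The log2 fold change was −0.32 (SE 0.16) for MMT and −0.48 (SE 0.16) for MnCl2 against control. Neither passed the test: edgeR's quasi-likelihood p was 0.0687 (adjusted 0.998) and 0.0115 (adjusted 0.973). Of 755 rows in the table of sums, 0% passed the adjusted threshold of 0.05 for MMT and 0% for MnCl2. At an unadjusted p under 0.05, 3.18% of rows lay lower in MnCl2, and Gln-CTG was the 1 of the 5 member sums among them. The MnCl2 log2 fold change was −0.37 with total-count scaling and −0.59 with DESeq2.

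Gln-TTG, which reads CAA codons, gave 3347, 3444 and 2157 CPM in control, 2562, 2118 and 2522 in MMT, and 2791, 2338 and 2205 in MnCl2. As with Gln-CTG, control 1 and 2 were the highest libraries, and control 3 lay within the treated range. The log2 fold changes were −0.31 (SE 0.19, edgeR adjusted p = 0.998) and −0.29 (SE 0.19, adjusted p = 0.973). The MMT value was −0.51 without control 3 and −0.20 without control 2, and the MnCl2 value −0.48 without control 3 and −0.17 without MnCl2 2.

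Asp-GTC, the main aspartate tRNA, gave 11632, 23971 and 26083 CPM in control libraries 1, 2 and 3. It gave 21611, 27428 and 18194 CPM in MMT and 22907, 29410 and 19848 in MnCl2. The groups overlapped fully, and control 1 stood well below the other 8 libraries. The means were 20562 ± 7805, 22411 ± 4669 and 24055 ± 4883 CPM (SD, n = 3). The log2 fold changes were 0.12 (SE 0.28) for MMT and 0.23 (SE 0.28) for MnCl2, with edgeR adjusted p of 0.998 and 0.973. The sign rested on control 1: without it the values were −0.16 and −0.07. Without MMT library 2 the MMT value was −0.05.

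Asp-ATC rested on few reads, with 25 to 92 counts in a library. Its level was 14.4, 76.1 and 138 CPM in control, 70.0, 106 and 31.6 in MMT, and 86.5, 91.7 and 52.2 in MnCl2. The control libraries alone spanned the whole range of the data. The log2 fold changes were −0.11 (SE 0.66) and 0.05 (SE 0.66), each smaller than its standard error.

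Asn-GTT was the steadiest of the 5. It gave 2434, 2622 and 2426 CPM in control, 2286, 2156 and 2484 in MMT, and 2095, 2060 and 2152 in MnCl2. On this scale the 3 MnCl2 libraries lay below the 3 controls, and MMT library 3 lay within the control range. Here too the number of all rows that separate so was not counted. As unscaled shares of all counts the groups overlapped: control 1, at 0.209%, lay below the MnCl2 libraries (0.219%, 0.223% and 0.216%). The means were 2494 ± 111, 2309 ± 165 and 2102 ± 46.3 CPM (SD, n = 3). The log2 fold change was −0.11 (SE 0.13) for MMT and −0.25 (SE 0.13) for MnCl2, with edgeR p of 0.415 and 0.0860 (adjusted 0.998 and 0.973). The size of the MnCl2 value depended on the setting: it was −0.158 with total-count scaling and −0.338 with DESeq2. The single Asn-GTT copies, scaled apart from the sums, had a median of −0.108 in MnCl2. The MMT value was −0.066 without MMT 2, and the MnCl2 value −0.156 without MnCl2 2.

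Between the treatments, MMT against MnCl2, the log2 fold changes of the sums were 0.16 (SE 0.16) for Gln-CTG, −0.03 (SE 0.19) for Gln-TTG, −0.10 (SE 0.28) for Asp-GTC, −0.16 (SE 0.65) for Asp-ATC and 0.14 (SE 0.13) for Asn-GTT. The edgeR adjusted p was 0.995 for each, and 0% of the 755 rows passed. None lay far from 0 beside its standard error. The doses of the treatments differ, so this compares the groups as dosed.

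Single gene copies were then compared in a fit of all 1113 entries that passed the filter. By edgeR, 0 of the 47 genes passed an adjusted p under 0.05 in MMT against control, in MnCl2 against control or in MMT against MnCl2. Over all entries 0% passed in each comparison, and DESeq2 called 0 members as well. The lowest adjusted p of a member was 1.00, 0.843 and 0.981 in the 3 comparisons. The biological coefficient of variation was 27.9%.

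**Figure D2:**
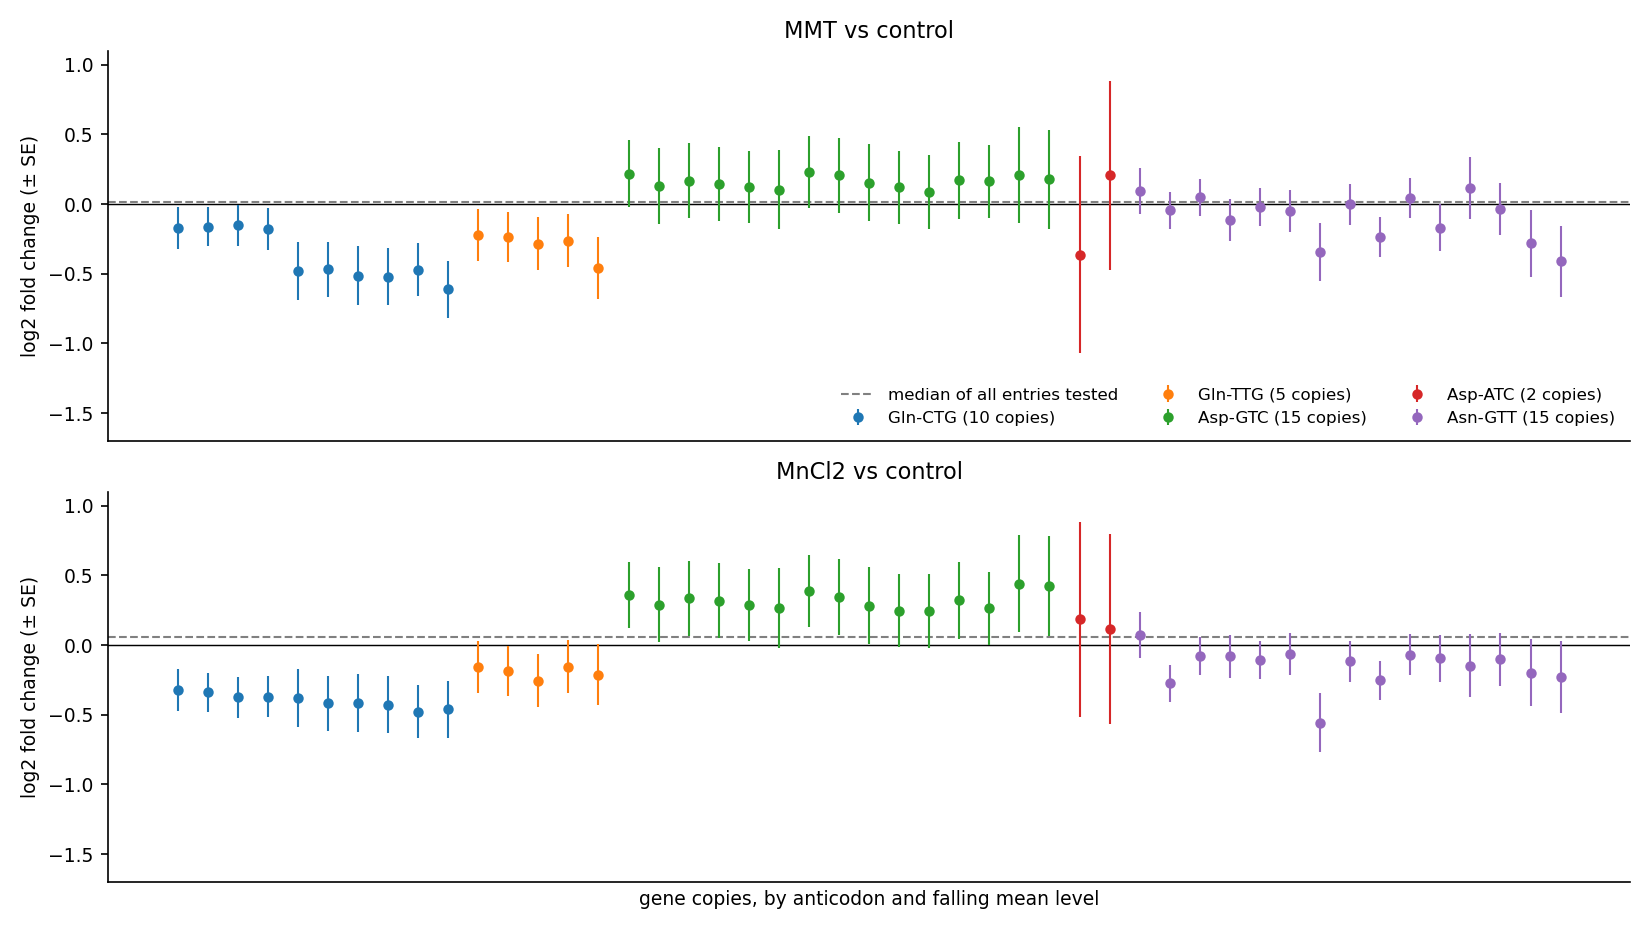
Log2 fold change of every gene copy (points, with standard error) for MMT against control above and MnCl2 against control below; copies run from left to right by anticodon and, within it, by falling mean level, and the dashed line is the median of all entries tested. All 10 Gln-CTG copies lie below 0 and all 15 Asp-GTC copies above 0 in both panels; the standard errors of the 15 Asp-GTC copies reach 0 in the upper panel and those of the Gln-CTG copies in neither.

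In MMT against control the 10 Gln-CTG copies had a median log2 fold change of −0.47 and 10 of 10 were negative. All 5 Gln-TTG copies were negative as well (median −0.26), the 15 Asp-GTC copies were all positive (median 0.16) and the Asn-GTT copies had a median of −0.05 (11 of 15 negative). The 2 Asp-ATC copies had opposite signs. The median was 0.01 over all 1113 entries and −0.01 over the nuclear tRNA genes, of which 46.9% and 52.2% were negative. Copies of 1 anticodon share reads and are not independent. Without control 1 the Asp-GTC median was −0.14 (15 of 15 negative). Without MMT 2 it was 0.01 (6 of 15 negative), and the Asn-GTT median was 0.03 (6 of 15 negative).

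At an unadjusted p under 0.05, 6 of the 47 genes were lower in MMT and 0 higher, beside 1.98% lower and 0.18% higher over all entries. DESeq2 also had 6 lower, beside 20 lower and 4 higher over all entries it fitted. Over the 408 nuclear tRNA genes edgeR had 12 lower and 0 higher, and DESeq2 8 lower and 1 higher. The 6 genes by edgeR were the 6 Gln-CTG copies that carry A68G, a change in the 3′ strand of the acceptor stem. The lowest p was that of the gene at chr17:58796727-58796798 (plus strand, sequence 6 above). It gave 1595, 1491 and 989 CPM in control, 1021, 740 and 907 in MMT, and 1210, 885 and 874 in MnCl2. Control 3 lay between the MMT values. Its log2 fold change in MMT was −0.61 (SE 0.21), with an edgeR p of 0.0125 (adjusted 1.00).

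Next came the genes at chr2:218023979-218024050 (minus strand), with −0.52 (SE 0.20, edgeR p of 0.0264, adjusted 1.00), and at chr2:218102322-218102393 (plus strand), with −0.47 (SE 0.19, edgeR p of 0.0322, adjusted 1.00). The first gave 1761, 1766 and 1076 CPM in control and 1171, 919 and 1121 in MMT. The second gave 1779, 1689 and 1126 CPM in control and 1231, 948 and 1140 in MMT. In both, control 3 lay inside the MMT range, as for the gene on chromosome 17. The count of 6 was 0 without control 2, 0 without MMT 2 and 2 without control 1. It was 3 without MMT 1, 3 without MMT 3 and 12 without control 3. The counts over all entries in these runs were not taken, so the members cannot be set beside them.

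In MnCl2 against control the medians were −0.40 for Gln-CTG (10 of 10 negative), −0.18 for Gln-TTG (5 of 5 negative), 0.32 for Asp-GTC (15 of 15 positive), 0.15 for Asp-ATC (2 of 2 positive) and −0.11 for Asn-GTT (14 of 15 negative). The median was 0.06 over all entries and −0.08 over the nuclear tRNA genes, of which 42.7% and 66.2% were negative. At an unadjusted p under 0.05, 6 genes were lower and 0 higher, beside 3.14% lower and 1.44% higher over all entries. They were 5 Gln-CTG genes (3 without and 2 with A68G) and 1 Asn-GTT gene. DESeq2 had 10 members lower, beside 54 lower and 21 higher over all entries it fitted, where edgeR had 35 and 16. Over the 408 nuclear tRNA genes DESeq2 had 36 lower and edgeR 21. Without control 1 the Asp-GTC median was 0.02 (6 of 15 negative) and the Asp-ATC median −0.38 (2 of 2 negative). The edgeR count of 6 was 0 without MnCl2 2, 0 without MnCl2 3, 1 without control 1 and 1 without control 2. It was 10 without MnCl2 1, 11 without MMT 2 and 15 without control 3. Counts over all entries were not taken in these runs either.

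The Asn-GTT gene among them, at chr2:217981144-217981217 (plus strand, sequence 2, with T6C and A68G), had the lowest p. It gave 170, 197 and 291 CPM in control, 176, 136 and 201 in MMT, and 145, 149 and 149 in MnCl2. Control 3 stood apart as the highest library, while the MnCl2 libraries lay within a few CPM of each other. The log2 fold change was −0.56 (SE 0.21, edgeR p of 0.0235, adjusted 0.843). Other Asn-GTT copies did not stand so low: the most abundant, at chr7:12495983-12496056 (minus strand, sequence 1), gave 204, 185 and 154 CPM in control and 191, 157 and 225 in MnCl2, a log2 fold change of 0.07 (SE 0.17).

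Next were the Gln-CTG genes at chr10:55454139-55454210 (minus strand, sequence 1) and chr17:58809986-58810057 (minus strand). The first gave 4018, 4070 and 3292 CPM in control, 3478, 3068 and 3686 in MMT, and 3303, 2757 and 2730 in MnCl2. MnCl2 library 1 lay just above control 3. Its log2 fold change in MnCl2 was −0.37 (SE 0.15, edgeR p of 0.0277, adjusted 0.843). The second gave 3893, 3842 and 3195 CPM in control and 3264, 2601 and 2587 in MnCl2, with −0.37 (SE 0.15, edgeR p of 0.0287, adjusted 0.843). In MMT against control these 2 genes had −0.15 and −0.18 (SE 0.15 each).

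In MMT against MnCl2 no member was at an unadjusted p under 0.05 by edgeR or DESeq2, beside 0.629% lower and 1.35% higher over all entries. The Gln-CTG median was −0.02 with 5 of 10 copies negative, and the Asp-GTC median −0.16 with 15 of 15 negative. The Asn-GTT median was 0.07. Over all entries the median was −0.06 and 58.1% were negative. The Gln-CTG sign turned with the settings: the median was 0.03 with RLE scaling, 0.04 with DESeq2 and 0.05 with no filter or with the 2 groups alone. It was 0.15 (0 of 10 negative) without MMT 2 or without MnCl2 1, and 0.03 and 0.06 without control 2 and control 3. The Asp-GTC median was 0.027 (0 of 15 negative) with the total count as a covariate. It was −0.027 without MMT 3, −0.042 without MnCl2 2, −0.085 without control 3, −0.245 without MMT 2 and −0.263 without MnCl2 3.

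The Gln-CTG copies fell into 2 sets by base 68, a split noticed in the values and so described without a test. The 4 genes without A68G had 31521 to 33407 counts each over the 9 libraries, whereas the 6 with it had 10715 to 13450. Sequences 1 and 3 above differ at that base alone and averaged 33287 and 13363 counts per gene. Other changes went with smaller differences. A gene with C44T but not A68G had 31521 counts, genes with T20G and A68G averaged 12413, and sequence 6, with C6T, G12A, A15G, C44T and A68G, had 10715.

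Of the 6 copies with A68G, 5 share their last 30 bases with 3 Gln-TTG genes, 8 genes in all, and the copy that also has C49T shares them with 1 Gln-TTG gene. The last 30 bases of the copies without it are found in those 4 Gln-CTG genes alone. Fragments of the first 30 bases, by contrast, fit 7 Gln-CTG genes of both sets. Gln-TTG genes had 3705 to 5882 counts each. The most abundant of them, at chr10:83475942-83476013 (minus strand, sequence 1), gave 732, 744 and 493 CPM in control, 603, 506 and 580 in MMT, and 726, 538 and 506 in MnCl2. The least abundant, at chrX:10602975-10603046 (plus strand), differs at A56G, A58G, G67A and A69G among others and gave 495, 523 and 291 CPM in control and 334, 283 and 337 in MMT. In the chromosome 10 gene control 3 was the lowest of the 9 libraries. In the chromosome X gene control 3 lay within the MMT range and below the MnCl2 libraries (473, 338 and 325 CPM).

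**Figure D3:**
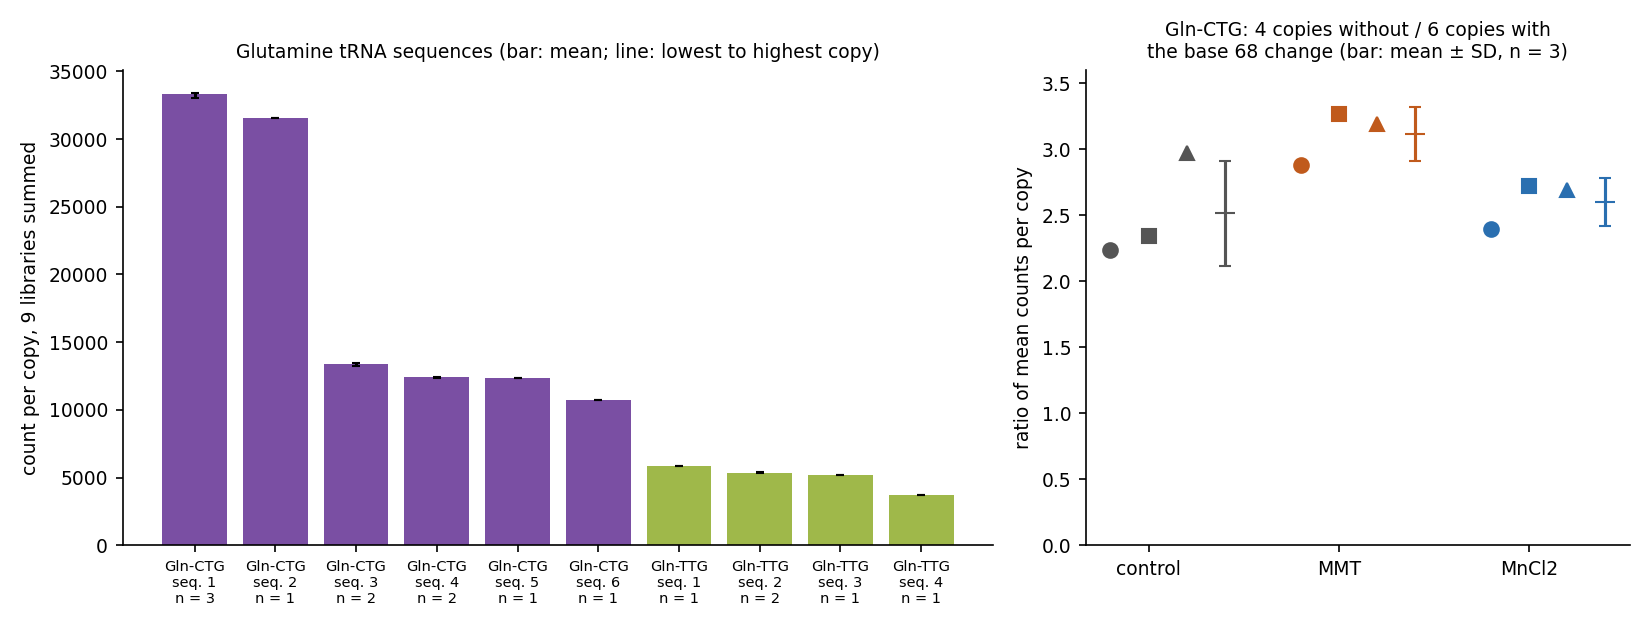
Left, counts per gene copy summed over the 9 libraries for the 6 Gln-CTG and 4 Gln-TTG sequences (bars from 0, mean of the n identical copies; lines, lowest to highest copy). Right, ratio of the mean count of the 4 Gln-CTG copies without A68G to that of the 6 with it in each library, with mean ± SD of 3 libraries; MMT libraries stand at 2.88 to 3.27 and the others at 2.24 to 2.97.

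The ratio of the mean count per gene, without A68G over with it, needs no scaling between libraries. It was 2.24, 2.34 and 2.97 in control libraries 1, 2 and 3, 2.88, 3.27 and 3.19 in MMT, and 2.40, 2.72 and 2.69 in MnCl2. Control 1 and 2 had the lowest ratios and MMT 2 and 3 the highest, and control 3 lay among the MMT values. The group means were 2.52 ± 0.398 (SD, n = 3), 3.12 ± 0.206 and 2.60 ± 0.180. In fold changes, the 4 genes without A68G had a median of −0.17 in MMT and −0.36 in MnCl2, and the 6 with it −0.50 and −0.42.

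The most abundant Gln-CTG gene, at chr8:69919512-69919583 (plus strand, sequence 1), gave 4072, 4155 and 3211 CPM in control, 3382, 3097 and 3686 in MMT, and 3434, 2844 and 2854 in MnCl2. Control and treated libraries overlapped. Its log2 fold changes were −0.17 (SE 0.15) and −0.33 (SE 0.15), with edgeR adjusted p of 1.00 and 0.843.

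Among the Asp-GTC genes 12 share 1 sequence and had 13559 to 13923 counts each. The gene at chr7:31970615-31970686 (minus strand), with G20T and G56A, had 14290, the most of the 15. Its level was 866, 1601 and 1658 CPM in control, 1556, 1900 and 1338 in MMT, and 1684, 2093 and 1500 in MnCl2. The 2 genes on chromosome X, with G41A and G56A, had 10679 and 10714 counts, the fewest. G56A lies at the variable base of the B box and is shared with the gene on chromosome 7, so the changes that only the chromosome X genes carry come down to G41A in the anticodon stem.

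The chromosome X gene at chrX:10897459-10897530 (minus strand) gave 470, 1292 and 1395 CPM in control, 1107, 1572 and 880 in MMT, and 1411, 1710 and 1089 in MnCl2. The mean count of the 2 chromosome X genes was 58.9% of that of the other 13 in control 1 and 71.3% to 86.1% in the other 8 libraries. Control 1 thus stood apart in the makeup of its Asp-GTC counts as well as in their level. The fold changes of the 2 chromosome X genes had medians of 0.19 in MMT and 0.43 in MnCl2, those of the other 13 genes 0.15 and 0.29, all short of an unadjusted p of 0.05.

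The 2 identical Asp-ATC genes, at chr1:222166657-222166736 and chr1:224467054-224467133 (plus strand), had 309 and 302 counts. Their signs in MMT differed, −0.36 (SE 0.70) and 0.21 (SE 0.68), although the sequences are the same. Each listed span exceeds its sequence without CCA by 10 bases, and for the other 45 members by 0. The Asn-GTT genes of sequence 7 had 659 and 678 counts, the fewest of that anticodon. The one at chr11:42863403-42863477 (plus strand) gave 75.1, 104 and 57.8 CPM in control, 63.1, 60.3 and 55.4 in MMT, and 80.2, 68.5 and 54.6 in MnCl2.

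Raw counts of Asp-GTC hardly followed the size of the library. They were 20149, 23929 and 16654 in control libraries 1, 2 and 3, 25323, 21675 and 25347 in MMT, and 18005, 29510 and 19757 in MnCl2, a 1.77-fold range. The Gln-CTG counts were 48114, 27046 and 12885, then 24224, 14157 and 29995, then 15598, 17631 and 16376, a 3.73-fold range. The totals of the libraries spanned 3.45-fold. The deepest library, control 1, had the most Gln-CTG counts and yet fewer Asp-GTC counts than 5 of the other 8 libraries.

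**Figure D4:**
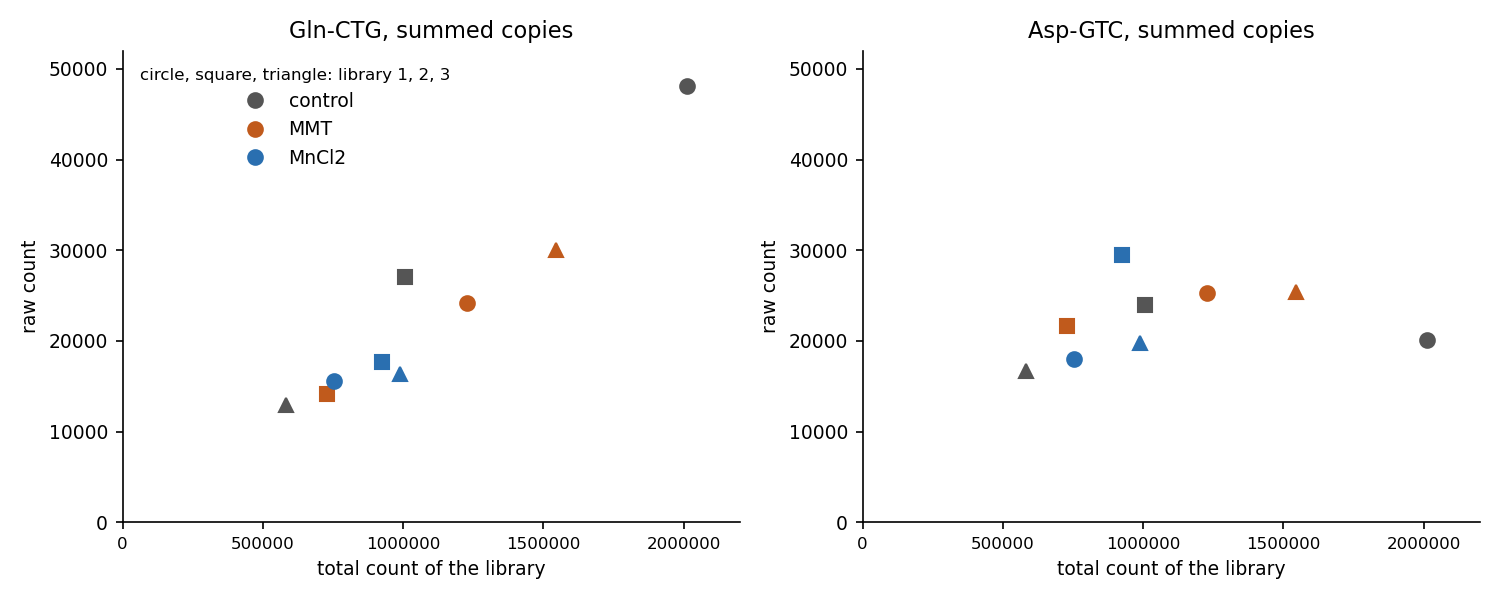
Raw counts of the summed Gln-CTG genes (left) and Asp-GTC genes (right) against the total count of each library (both axes linear, from 0); colours are groups and symbols are libraries 1, 2 and 3. Gln-CTG runs from 12885 to 48114 along with the total, and Asp-GTC stays between 16654 and 29510 over the same range of totals.

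In 6 relations tested over the 9 libraries, unscaled CPM of Asp-GTC went with the log2 total at Pearson's r = −0.862 (exact permutation p = 0.00299, adjusted 0.00897) and Spearman's rho = −0.833 (exact p = 0.00827, adjusted 0.0165). With the smallest and the deepest library (control 3 and 1) left out, r was −0.733 (exact p = 0.0556). For Asp-ATC r was −0.943 (exact permutation p = 2.4e-04, adjusted 0.00146) with rho −0.933, and −0.872 without those 2 libraries (exact p = 0.0115). CPM has the total as its divisor, so a count that does not follow the total gives a negative r. For Gln-CTG r was 0.142, for Gln-TTG 0.142 and for Asn-GTT −0.580 (exact permutation p = 0.720, 0.716 and 0.0977). The negative relation was thus seen for both aspartate anticodons, and with control 1 and 3 left out it held at an exact p under 0.05 for Asp-ATC alone.

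The ratio of summed Asp-GTC to summed Gln-CTG counts needs no scaling. It was 0.419, 0.885 and 1.29 in control, 1.05, 1.53 and 0.845 in MMT, and 1.15, 1.67 and 1.21 in MnCl2. Control 1 had the lowest ratio and the groups overlapped. The log2 ratio was 0.50 higher in MMT and 0.76 higher in MnCl2 than in control, and exact two-sided permutation tests gave p = 0.5 and 0.3 (0.5 each after adjustment). MMT against MnCl2 differed by −0.26 (exact p = 0.4, adjusted 0.5). Without control 1 the first 2 differences were 0.05 and 0.31, and without control 3 they were 0.86 and 1.12. MMT against control was 0.26 without MMT 2, and MMT against MnCl2 was −0.07 without MMT 3, −0.09 without MnCl2 2 and −0.50 without MMT 2. The log2 ratio went with the log2 total at r = −0.813 (exact permutation p = 0.00638, adjusted 0.0128) and −0.677 without control 1 and 3 (exact p = 0.0962).

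A piRNA entry of the same table, pir-72949, is identical to bases 1 to 32 of Asp-GTC, a 5′ fragment that ends just before the anticodon. Its counts were 723, 318 and 170 in control libraries 1, 2 and 3, 346, 203 and 400 in MMT, and 122, 266 and 229 in MnCl2. These raw counts were highest in control 1, the deepest library. There the Asp-GTC genes were lowest in CPM but not in raw counts (20149, against 16654 in control 3). As a share of the Asp-GTC gene counts they came to 3.59% in control 1 and 0.678% to 1.58% in the other 8 libraries. Its log2 fold change was −0.23 (SE 0.20) in MMT and −0.54 (SE 0.20, edgeR p of 0.0192, adjusted 0.843) in MnCl2, while the Asp-GTC genes had positive values in both. In all, 14 piRNA entries shared 16 or more bases with a member and 3 lay wholly within 1, all 3 at the 5′ end of Asp-GTC.

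Other tRNAs that share the modifications named above were set beside the members, by counts and medians alone. For the queuosine tRNAs outside the members, His-GTG and Tyr-GTA, 12 of 12 genes were negative in MMT (median −0.14) and 12 of 12 in MnCl2 (median −0.19), beside −0.01 and −0.08 over the nuclear tRNA genes. Of these 12 genes 10 are His-GTG copies. Over the nuclear tRNA genes 52.2% were negative in MMT and 66.2% in MnCl2. Asn-GTT, also a queuosine tRNA, had −0.05 and −0.11, and Asp-GTC 0.16 and 0.32. For the DNMT2 tRNAs Gly-GCC and Val-AAC the medians were 0.17 and −0.04 in MMT and 0.21 and −0.18 in MnCl2. Thus 1 of these 2 isotypes had the sign of Asp-GTC. That sign rested on control 1: without it the Asp-GTC median was −0.14 in MMT and 0.02 in MnCl2. Gly-GCC and Val-AAC were not followed with a library left out. For the other Elongator tRNAs, Lys-TTT and Glu-TTC, 6 of 11 genes were negative in MMT (median −0.01) and 10 of 11 in MnCl2 (median −0.11), beside 5 of 5 for Gln-TTG in each. By edgeR 0 genes of these lists passed an adjusted p under 0.05, and at an unadjusted p under 0.05 there were 0 in MMT and 1 in MnCl2, a Gly-GCC gene, outside the members. In MnCl2 DESeq2 had 4 His-GTG, 3 Gly-GCC and 1 Lys-TTT gene lower at that threshold, beside 36 of all 408 nuclear tRNA genes.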

How the data were processed

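Small RNA libraries of rat striatum, 3 per group, were compared as control, MMT and MnCl2. TRIzol RNA was size-selected on a gel (15 to 45 nucleotides) and given QIAseq miRNA adapters, per the labels' protocols. Per the submitters' processing notes, Trimmomatic and the rn6 build were used. No aligner is named, and how strand, molecular identifiers and reads that fit several entries were handled is not given in the sources used here. The authors deposited raw counts per entry, 1 table per library, from 583045 to 2012769 in total. If PCR copies were counted, counts are not independent molecules.

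The test was that of edgeR 4.0.16, run in R 4.3.3 (TMM scaling, filterByExpr, robust quasi-likelihood fit, two-sided, all 9 libraries in 1 fit, Benjamini-Hochberg adjustment at 0.05 over 1113 entries). A second fit summed nuclear tRNA genes by anticodon (755 rows) and has its own TMM scaling, so sums and single genes are not on 1 scale. Ratios and shares were compared by exact permutation tests over 20 arrangements. The fit was tested on simulated data. The settings varied were the tool (DESeq2 1.42.0), the scaling (RLE, total count), the filter (none, or 10 CPM in 3 libraries), the 2 compared groups alone, the replicate number as a block, the log2 total as a covariate, and each library left out.

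The members, lists and tests were chosen with earlier results of these data known. Named genes are the most and least abundant copy of each anticodon and, per comparison, up to 3 genes in each direction with the lowest p among those at an unadjusted p under 0.05. Sequences were aligned with Biopython 1.88, and tables, exact tests and plots were made in Python 3.11.15 (pandas 2.3.3, scipy 1.17.1, numpy 2.4.6, matplotlib 3.10.9).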

Additional observations from a re-analysis of the deposited data

How the results depend on the processing

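The count of member genes at an adjusted p under 0.05 was 0 under every alternative run. The count at an unadjusted p under 0.05 in MnCl2 against control was 6, and 10 with RLE scaling, 11 with total-count scaling and 10 with DESeq2. Over all entries edgeR had 35 lower and 16 higher, and DESeq2 54 and 21. The same was not counted for RLE or total-count scaling, nor for any other alternative run. With a library left out in turn the member count ran from 0 to 15, from 0 to 12 in MMT against control and from 0 to 1 in MMT against MnCl2. The summed Gln-CTG, Gln-TTG and Asn-GTT values kept their sign against control under every alternative run. With a library left out, Gln-CTG ran from −0.46 to −0.25 in MMT and −0.62 to −0.38 in MnCl2, Gln-TTG from −0.51 to −0.20 and −0.48 to −0.17, and Asn-GTT from −0.14 to −0.066 and −0.31 to −0.16. With the other settings varied, the MnCl2 values ran from −0.59 to −0.37 for Gln-CTG, −0.40 to −0.18 for Gln-TTG and −0.34 to −0.16 for Asn-GTT. The MMT values ran from −0.34 to −0.31, −0.33 to −0.29 and −0.12 to −0.10. A median over all rows of the sums was not taken. Several small values changed sign. With the total count as a covariate, Asp-ATC was 0.31 in MMT against control and 0.28 in MMT against MnCl2, and Asp-GTC 0.0793 in MMT against MnCl2. Gln-TTG in MMT against MnCl2 was 0.0472 with RLE scaling, 0.0660 with DESeq2 and 0.0021 with no filter. As a share of tRNA counts, the members' difference between MnCl2 and control was 0.403 percentage points. With a library left out, MMT against control ran from −0.16 to 0.32 for Asp-GTC and −0.63 to 0.63 for Asp-ATC, and MnCl2 against control from −0.0704 to 0.42 and −0.48 to 0.79. MMT against MnCl2 ran from −0.14 to 0.0841 for Gln-TTG, −0.27 to 0.12 for Asp-GTC and −0.60 to 0.29 for Asp-ATC. The share of all counts ran from −0.987 to −0.095 percentage points in MMT against control, −0.745 to 0.229 in MnCl2 against control and −0.637 to 0.105 in MMT against MnCl2. The cause of these changes was not tested. Libraries that share a replicate number did not deviate together (r from −0.666 to 0.493 over 9 pairs), so the numbers are not treated as pairs. With the replicate number as a block, 0 members were called and 6 stood at an unadjusted p under 0.05 in MMT against control. Asp-ATC has the fewest counts, 25 to 92 a library, and the widest spread between libraries (51.0%).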
